A study of Homo sapiens with 6 samples.

Results

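ZFAND3 is a protein-coding gene on chromosome 6, plus strand, from 37787307 to 38122400 (hg19, counted from 1; 335094 nt). The RefSeq table of GRCh38.p14, used here for names only, lists it with the synonym TEX27. The gene is described here in all 6 crosslink libraries of the series. Its members are the plus-strand positions between these coordinates, which fall in 35 of the 174732 strand-specific 10 kb windows that held any event. The first of these windows begins before the gene, at 37780001, and the last ends after it, at 38130000. Values of windows are for whole windows, so these also count events outside the gene. The gene was chosen on measured values, since its 10 kb window from 37820001 to 37830000 stood out in the QKI-5 libraries for a large number of crosslink clusters. Levels and cluster counts of that window in QKI-5 libraries are therefore given as a description, and the contrasts of the window and of the gene with the controls share the QKI-5 libraries that chose them.

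The cells were BEAS2B, a human bronchial epithelium-derived established cell line, grown in serum and irradiated with UV. The 3 QKI-5 iCLIP libraries were immunoprecipitated with a self-made antibody against QKI-5. The 3 control libraries carry the label that no antibody was used. Both groups share the cell line and the UV step. The protocol text names a high and a low RNase dilution and one antibody step for all samples, without saying which library had which dilution. The labels also do not say whether replicates were separate cultures. The p-values below therefore cover only how these libraries vary, which may be technical.

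ZFAND3 encodes a zinc finger protein with an A20-type and an AN1-type finger, one of a family of ZFAND proteins of which several bind ubiquitin or the proteasome. QKI-5 is the nuclear isoform of Quaking, a KH-domain protein of the STAR family that regulates splicing and the formation of circular RNAs. In iCLIP, UV light links protein to RNA and reverse transcription tends to stop at the link, so that each cDNA marks a position near it. A nuclear RNA-binding protein meets unspliced transcripts, and events can therefore fall anywhere along a long gene, introns included. No hg19 genome or exon annotation was used here, so positions were assigned neither to exons, introns or UTRs nor to sequence motifs, and no bases are printed.

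QKI-5 libraries held 2143279 to 7283982 crosslink events and controls 29810 to 137926. One event is 0.137 to 0.467 EPM, that is, events per 1000000 of all events counted in that library, in QKI-5 libraries and 7.25 to 33.5 EPM in controls, so that control values are coarse. The genome-wide test of windows gave a median log2 fold change (QKI-5 over control) of 0.78 with TMM scaling and 0.22 with library totals, and fold changes of single windows are to be read against that median. Whether a higher EPM means more of the RNA or more crosslinks per RNA cannot be told apart, because no RNA level was used here.

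By mean QKI-5 EPM, ZFAND3 was among the most heavily crosslinked stretches of its length. QKI-5 replicates 1, 2 and 3 held 25161, 6592 and 9047 events in the gene, and control replicates 1, 2 and 3 held 344, 76 and 65. On the EPM scale this was 3454, 3076 and 3131 in QKI-5 libraries and 2494, 1832 and 2180.5 in controls. Every QKI-5 library lay above every control. The means were 3220.4 ± 204 EPM in the QKI-5 libraries, against 2169 ± 331 EPM in controls (SD, n = 3 each), a ratio of 1.48 (two-sided exact permutation p = 0.1, the smallest that 3 libraries against 3 allow). When the genome was cut by strand into tiles as long as the gene, 8 of 16318 tiles with QKI-5 events had a higher mean QKI-5 EPM than ZFAND3. The tiles lay on a fixed grid that was not fitted to genes, and their median was 2.95 EPM. ZFAND3 was chosen on QKI-5 values, so its rank is a description. Complete separation with QKI-5 above control was found in 22.8% of those tiles, so the separation by itself does not set ZFAND3 apart. With each position counted once, the means were 2788 and 2491 positions per 1000000 positions in QKI-5 and control libraries, a ratio of 1.12 (two-sided exact permutation p = 0.3).

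**Figure D1:**
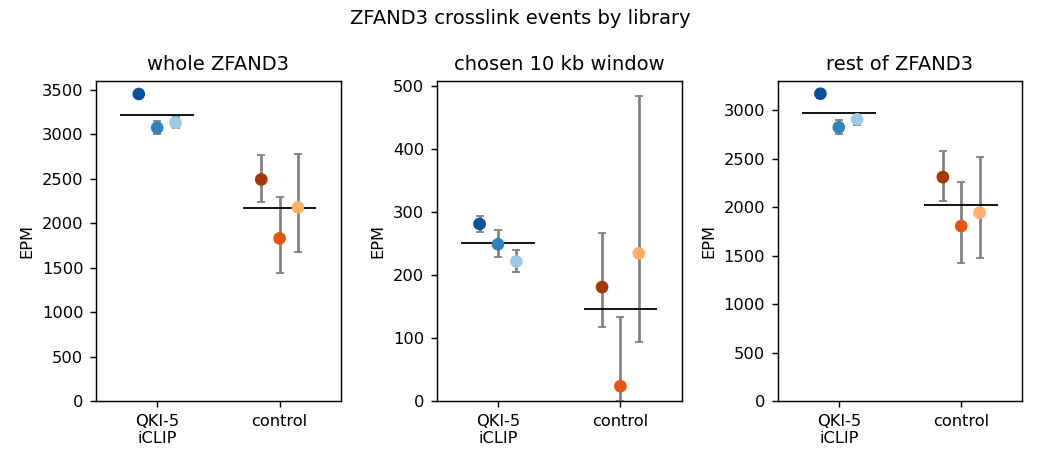
Events per 1000000 library events (EPM) in each of 3 QKI-5 iCLIP and 3 control libraries for the whole of ZFAND3, the chosen 10 kb window and the rest of the gene; grey bars are 95% exact Poisson intervals (counting error only) and black lines are group means. All 3 QKI-5 libraries lie above all 3 controls for the gene and for its rest, while in the chosen window control replicate 3 (235 EPM) lies above QKI-5 replicate 3 (222 EPM).

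Events were not spread evenly along ZFAND3 but gathered near its start. When the gene was cut into 5 parts of 67.0 kb, the first held 59.0, 59.1 and 58.6% of the events of the gene in QKI-5 replicates 1, 2 and 3, and 57.3, 48.7 and 47.7% in control replicates 1, 2 and 3. The fourth part held 5.51, 4.48 and 5.75% in QKI-5 libraries and 7.56, 7.89 and 4.62% in controls. The middle event of the gene lay 52.7, 54.4 and 54.0 kb from the start in QKI-5 libraries, against 56.7, 67.4 and 75.2 kb in controls. In both groups the first part held the most events, and every QKI-5 library had its middle event nearer to the start than every control (two-sided exact permutation p = 0.1). The share of the first 67.0 kb averaged 58.9 ± 0.294% in QKI-5 libraries and 51.2 ± 5.27% in controls (SD, n = 3 each; two-sided exact permutation p = 0.1). Counting each position once gave shares of 50.7% in QKI-5 libraries and 51.4% in controls (exact permutation p = 0.9). With events at one position capped at 3 the shares were 53.8% in QKI-5 libraries and 51.4% in controls (exact permutation p = 0.4). When the gene was taken from 37744275, where plus-strand events before it began, and cut again into 5 equal parts, the first part held 39.2% in QKI-5 libraries and 38.6% in controls (exact permutation p = 0.8). The difference near the gene start thus changed with how events were counted and with where the gene was taken to begin. These settings cannot decide whether the groups differ there. Single positions of the gene held at most 106, 51 and 32 events in QKI-5 replicates 1, 2 and 3. In control replicates 1, 2 and 3 they held at most 5, 3 and 4, so both ways of counting acted more on QKI-5 libraries. The first part of the longer stretch took in the 43.03 kb before the gene, so it compared a different region. In EPM, the first 67.0 kb held 1897 ± 123 in QKI-5 libraries and 1120.1 ± 277 in controls, a ratio of 1.69. The other 4 parts held 1324 ± 81.8 EPM in the QKI-5 libraries, against 1049 ± 101 EPM in controls, a ratio of 1.26.

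**Figure D2:**
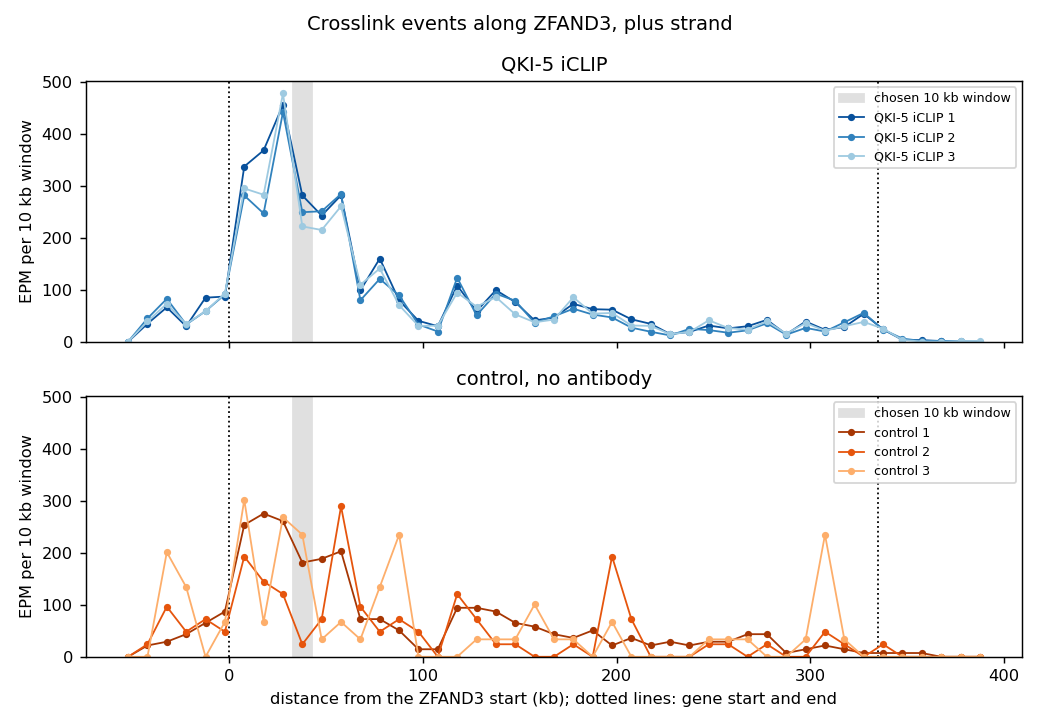
EPM per 10 kb window on the plus strand, from 5 windows before the first ZFAND3 window to 5 after the last, against the distance from the gene start in kb; one line per library, with QKI-5 iCLIP above and controls below. QKI-5 lines peak at the window just before the chosen one (grey; mean 458 EPM against 251 EPM in the chosen window) and fall along the gene, while control lines are jagged, with 1 event worth 7.25 to 33.5 EPM.

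The chosen window, which starts 32.7 kb inside the gene, carried neither the most events nor the most clusters of ZFAND3. It had 2050, 534 and 641 events in QKI-5 replicates 1, 2 and 3, which are 281, 249 and 222 EPM. Control replicates 1, 2 and 3 had 25, 1 and 7 events, which are 181, 24.1 and 235 EPM. The groups overlap, because control replicate 3 exceeds QKI-5 replicate 3. The means were 251 ± 29.8 EPM in the QKI-5 libraries, against 147 ± 110 EPM in the controls (SD, n = 3 each; two-sided exact permutation p = 0.2). In the rest of the gene QKI-5 replicates 1, 2 and 3 lay at 3173, 2827 and 2909.5 EPM and control replicates 1, 2 and 3 at 2313, 1808 and 1946 EPM, a ratio of means of 1.47, with no overlap (two-sided exact permutation p = 0.1). Such separation was found in 22.8% of the tiles as long as the gene. With each position counted once, the ratio for the rest was 1.11 (two-sided exact permutation p = 0.4). By mean QKI-5 EPM the window ranked 5 among the 35 windows of the gene and 54 among all windows of the genome. It spans 2.98% of the gene and held 8.15, 8.10 and 7.09% of the gene's events in QKI-5 libraries, against 7.27, 1.32 and 10.8% in controls. The 95% exact binomial intervals were 7.81 to 8.49, 7.45 to 8.79 and 6.56 to 7.63% in QKI-5 libraries and 4.76 to 10.5, 0.0333 to 7.11 and 4.44 to 20.9% in controls. The mean shares, 7.78 ± 0.600% in QKI-5 libraries and 6.45 ± 4.78% in controls (SD, n = 3 each), did not differ beyond that spread (two-sided exact permutation p = 0.8). Without control replicate 2 the mean shares were 7.78% in QKI-5 libraries and 9.02% in the remaining controls, a difference of -1.24 percentage points.

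Within the window the events declined from start to end. The first 5 kb held 71.1, 71.3 and 71.5% of the window's events in QKI-5 libraries and 56, 100 and 71.4% in controls, where 100% stands for a single event. The 1 kb bin from 37820001 held 49.1, 44.3 and 40.5 EPM in the QKI-5 libraries and 21.8, 0 and 67.1 EPM in controls. The bin from 37822001 held 53.7, 41.1 and 37.7 EPM in the QKI-5 libraries and 14.5, 0 and 101 EPM in controls. These were the highest 2 bins of the window, and they ranked 7 and 8 among the 1 kb bins of the gene. The lowest bin, from 37828001, held 14.1, 4.20 and 10.7 EPM in the QKI-5 libraries and 7.25, 0 and 0 EPM in controls. No single bin dominated the window.

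The window just before it, from 37810001 to 37820000, was the highest of the gene. It held 456, 442 and 478 EPM in the QKI-5 libraries, against 261, 121 and 268 EPM in the controls, so every QKI-5 library exceeded every control. The quasi-likelihood test of edgeR gave it a log2 fold change of 1.64 with an SE of 0.54 and an adjusted p of 0.103, while the DESeq2 Wald test called it higher (log2 fold change 1.46, adjusted p = 0.0272). The window from 37790001 held 337, 281 and 295 EPM in the QKI-5 libraries, against 254, 193 and 302 EPM in the controls. The window from 37800001 held 368, 247 and 283 EPM in the QKI-5 libraries and 276, 145 and 67.1 EPM in controls. Both overlap between groups, at log2 fold changes of 0.94 and 1.15. The window from 37840001 held 282, 284 and 261 EPM in the QKI-5 libraries and 203, 289 and 67.1 EPM in controls, and overlapped too, at a log2 fold change of 1.10. The window from 37830001 held 243, 251 and 215 EPM in the QKI-5 libraries and 189, 72.3 and 33.5 EPM in controls, without overlap and at a log2 fold change of 1.40. By mean QKI-5 EPM the windows from 37790001, 37800001, 37840001, 37820001 and 37830001 follow each other at 304, 299, 275, 251 and 236 EPM. Neighbours in that order differ by less than the larger of their SDs, which run from 12.9 to 62.4 EPM. The window from 37810001, at 458 ± 18.05 EPM, lies above all of them.

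None of the 35 ZFAND3 windows passed the genome-wide edgeR test, which called 226 of 29960 windows higher (0.754%) at an adjusted p under 0.05. Adjusted p ran from 0.0547 to 0.961 in the gene. At an unadjusted p under 0.05, 11 of the 35 (31.4%) were higher and 0 were lower, against 17.5% of all tested windows that were higher. With library totals in place of TMM scaling, 2 of the 35 (5.71%) were higher and 1 was lower at such a p. Of all tested windows 9.37% were higher then, so the order of these shares turned round. The medians did not turn round with library totals. The median log2 fold change was 0.49 over the ZFAND3 windows and 0.22 over all tested windows, with 25 of the 35 above the latter. With TMM scaling the median log2 fold change was 1.08 over the ZFAND3 windows and 0.78 over all tested windows, and 25 of the 35 lay above that genome-wide median. Other fits had their own median and set of tested windows. With distinct positions 18 of the 35 lay above the median of that fit (medians 0.63 and 0.59, 20702 windows tested). With no filter on low counts 14 did (medians 1.57 and 1.66, 174732 windows), and without control replicate 1 only 7 (52140 windows). In the last fit the window from 37970001, with 0 events in control replicates 2 and 3, had a log2 fold change of 10.2. These counts are therefore not on one scale. The sign was positive in 34 of the 35 windows, a larger share than the 77.3% of all tested windows. Every QKI-5 library exceeded every control in 7 of the 35 (20%), against 23.7% of all. For the chosen window edgeR gave 1.32 with an SE of 0.52 and an adjusted p of 0.159. DESeq2 called 1 of the 35 windows, the one from 37810001, and 0.754% of all windows higher. Without control replicate 1, edgeR called 10 of the 35 higher (1.59% of all windows then tested), the chosen window among them at a log2 fold change of 2.69 and an adjusted p of 0.00675. In that fit the median log2 fold change of the ZFAND3 windows was 2.37 and that of all tested windows 6.69. In 5 kb windows, 4 of 64 were called higher (5.98% of all such windows), among them the first 5 kb of the chosen window at a log2 fold change of 1.79 (adjusted p = 0.0385 by edgeR).

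**Figure D3:**
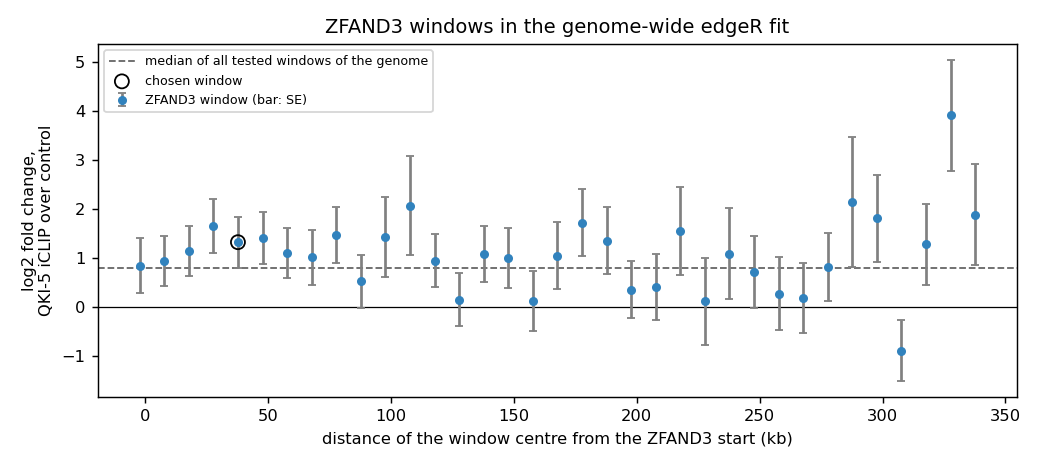
Log2 fold change (QKI-5 iCLIP over control, edgeR, TMM scaling) of each of the 35 ZFAND3 windows of 10 kb against the distance of its centre from the gene start in kb; bars are SE, the dashed line is the median of all tested windows (0.78) and the ringed point is the chosen window (1.32). Most ZFAND3 windows lie between 0 and 2, with 1 point at 3.90 and 1 below 0 at -0.89.

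The window that came nearest to the threshold lay close to the end of the gene, from 38110001 to 38120000. It held 53.7, 55.5 and 38.1 EPM in the QKI-5 libraries and 7.25, 0 and 0 EPM in controls, where the single control event came from control replicate 1. Its edgeR fold change was 3.90 on the log2 scale, with an SE of 1.13 and an adjusted p of 0.0547. The pooled ratio was 10.5, with a 95% exact interval of 1.88 to 417 that covers counting error only. Its 5 kb window from 38110001 was called higher (adjusted p = 0.00800 by edgeR). Only the window from 38090001 had a negative log2 fold change, -0.89 (adjusted p = 0.454 by edgeR), with 22.9, 19.6 and 21.1 EPM in the QKI-5 libraries and 21.8, 48.2 and 235 EPM in controls. There 7 of the 12 control events came from control replicate 3. Both windows were singled out after their values were seen.

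At 1 kb resolution the highest levels of QKI-5 libraries stood in a few narrow places, which held a minority of the gene's QKI-5 events. The highest bin, from 37811001 to 37812000, held 1932, 508 and 736 events in QKI-5 libraries and 5, 1 and 1 in controls. The next were the bins from 37839001, with 985, 300 and 296 events in QKI-5 libraries and 1, 1 and 0 in controls, and from 37804001, with 1272, 169 and 283 events in QKI-5 libraries and 0, 1 and 0 in controls. The bins from 37847001 and 37793001 followed. Together these 5 bins held 23.9, 21.2 and 20.4% of the gene's events in QKI-5 libraries and 3.49, 10.5 and 10.8% in controls, a contrast favoured by their choice on QKI-5 levels. None of the 5 lay in the chosen window. Between QKI-5 libraries the EPM of the 336 bins correlated at Pearson r of 0.956 to 0.964 (Spearman rho 0.807 to 0.870), as a description over bins of 1 gene. Between QKI-5 and control libraries r was 0.231 to 0.384 and between controls 0.0415 to 0.266, and controls held 344, 76 and 65 events over these bins. In the 35 windows of 10 kb, QKI-5 libraries and control replicate 1, the deepest control, correlated at r of 0.939 to 0.965, while r was 0.632 to 0.636 with control replicate 2 and 0.612 to 0.619 with control replicate 3.

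**Figure D4:**
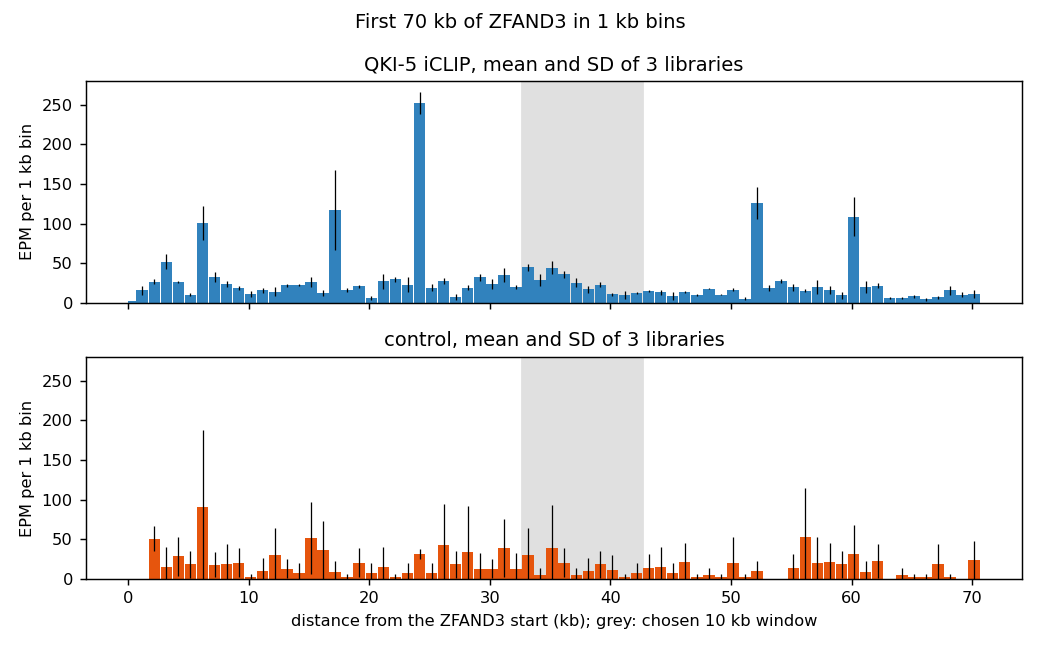
Mean EPM per 1 kb bin (bars) with SD of 3 libraries (lines, cut at 0) over the first 70 kb of ZFAND3, for QKI-5 iCLIP above and controls below, against the distance from the gene start in kb; grey marks the chosen 10 kb window. The 5 highest QKI-5 bins all lie outside the grey window, in which QKI-5 bins reach at most 44.7 EPM.

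Positions that every QKI-5 library shared were joined to clusters when at most 15 nt apart, and clusters of at least 2 such positions were kept. Of 19241 ZFAND3 positions seen in any library, 511 (2.66%) were shared by all 3 QKI-5 libraries, and these gave 79 clusters with a median width of 8 nt (2 to 88 nt). The first 67.0 kb of the gene held 66 of them, the second and the third part of that length held 6 and 7, and the last 2 parts held 0. The chosen window held 12 clusters, as did the window from 37800001, and the window from 37810001 held 19. In the genome 24 windows held more clusters than the chosen one and 7, itself included, held as many. Its clusters were narrow, with a median width of 5.5 nt and a median of 2 shared positions, against 8 nt and 3 positions in the rest of the gene. Neighbouring clusters lay a median of 680 nt apart in the chosen window and 640.5 nt apart elsewhere in the gene. Clusters held 15.9, 25.7 and 22.8% of the window's events in QKI-5 libraries, and 6 of 25, 0 of 1 and 3 of 7 events in controls. The count moved with depth and definition. With QKI-5 libraries thinned to the smallest of them, 5 clusters were left in the chosen window and 44 in the gene, and with positions of any 2 QKI-5 libraries there were 42 and 405.

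**Figure D5:**
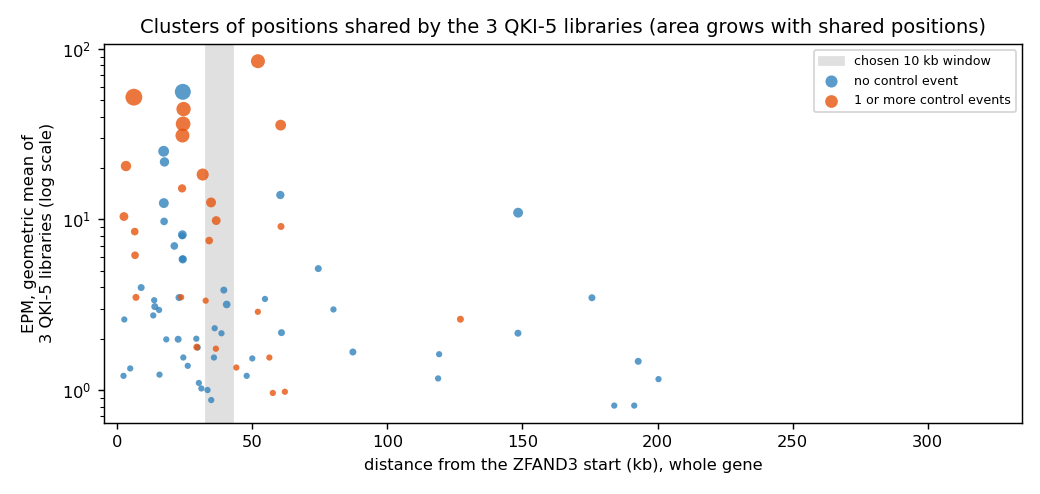
The 79 ZFAND3 clusters of positions shared by the 3 QKI-5 libraries, by distance from the gene start (kb) and geometric mean EPM of the 3 QKI-5 libraries (log axis); point area grows with the number of shared positions and colour tells clusters with a control event (27) from those without (52). No cluster lies beyond the third of the 5 parts of the gene, and the strongest cluster of the chosen window (grey) reaches 12.6 EPM, against 84.6 EPM for the strongest of the gene.

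The strongest cluster spanned 30 nt, from 37839384 to 37839413, with 18 shared positions. It held 631, 238 and 182 events in QKI-5 libraries and 1, 0 and 0 in controls, a pooled ratio of 17.9 (95% exact interval 3.20 to 706, counting error only). The second cluster, from 37811577 to 37811653, held 516, 117 and 131 events in QKI-5 libraries and none in controls. Set against 3 events for all controls together, it was at least 4.33-fold higher. The third, from 37793460 to 37793547, was the widest of the gene at 88 nt, and held 577, 80 and 138 events in QKI-5 libraries and 1, 0 and 3 in controls, a pooled ratio of 3.38 (1.31 to 12.4). The clusters from 37811855, 37811683 and 37811447 ranked 4, 5 and 7 and lay in the same 1 kb as the second. They held 563, 436 and 416 events over the QKI-5 libraries and 1 control event each. The cluster from 37847805 ranked 6, with 218, 129 and 73 events in QKI-5 libraries and 0, 3 and 0 in controls. Its 3 control events all came from control replicate 2, and the pooled ratio was 2.38 (0.808 to 11.6). The cluster from 37804479 ranked 8, with 261, 30 and 91 events in QKI-5 libraries and 0 in controls, at least 2.16-fold higher. All 8 were chosen on QKI-5 levels, so these ratios are descriptions.

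Single positions were ranked only where each QKI-5 library held an event, so their recurrence between these libraries follows from that choice. The strongest position, 37839395, lay in the strongest cluster. It held 106, 36 and 23 events in QKI-5 libraries and 0 in each control. Position 37839399 of the same cluster held 51, 51 and 20 events in QKI-5 libraries and 1, 0 and 0 in controls. Position 37839404, also there, held 35, 33 and 32 events in QKI-5 libraries and 0 in each control. Replicate 1, the deepest QKI-5 library, was thus not far above the others in events at every position. Positions 37839386 and 37839396 of the cluster ranked 6 and 8, with 75, 22 and 12 events at the one and 50, 13 and 10 at the other in QKI-5 libraries and 0 in each control. Outside it, position 37847839 held 29, 42 and 24 events in QKI-5 libraries and 0, 3 and 0 in controls, and its neighbour 37847838 held 43, 32 and 7 in QKI-5 libraries and 0 in each control. Position 37811307 held 42, 22 and 22 events in QKI-5 libraries and 1, 0 and 0 in controls. These 8 positions lay in 3 places of the gene, and none in the chosen window. In the chosen window the strongest cluster, from 37822036 to 37822060, held 122, 21 and 35 events in QKI-5 libraries and 1, 0 and 3 in controls. It ranked 14 in the gene.

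Clusters were also drawn from 2 QKI-5 libraries and read in the third and in the controls. This comparison was added after the data were seen. Each QKI-5 library held out had also taken part in the choice of the gene for its clusters, and the controls had not, so the values are a description with no test. The clusters covered 0.377 to 0.935% of the gene. They held 23.3, 32.4 and 26.7% of the gene's events in QKI-5 replicates 1, 2 and 3 when each was held out. Averaged over the 3 sets of clusters, control replicates 1, 2 and 3 held 12.9, 23.2 and 17.4% there. The lowest QKI-5 value lies just above the highest control value, though the first comes from 1 set of clusters and the second averages 3. Read on the same set as QKI-5 replicate 1, control replicates 1, 2 and 3 held 8.14, 22.4 and 15.4%. On the set of QKI-5 replicate 2 they held 17.2, 23.7 and 24.6%, and on that of replicate 3 they held 13.4, 23.7 and 12.3%. The means were 27.5 ± 4.62% in QKI-5 libraries and 17.9 ± 5.19% in controls (SD, n = 3 each), a ratio of 1.54. With each position counted once, the held-out shares were 14.6% in QKI-5 libraries and 16.2% in controls. With events at one position capped at 3 they were 18.8% in QKI-5 libraries and 17.97% in controls.

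Repeated events at one position moved with these results. In ZFAND3, QKI-5 replicates 1, 2 and 3 held 1.82, 1.85 and 1.92 events per position, above the 1.39, 1.72 and 1.75 of the same libraries as a whole. Controls 1, 2 and 3 held 1.14, 1.33 and 1.48 in the gene, below their own 1.30, 1.61 and 1.62. In the chosen window the values were 1.87, 1.85 and 1.83 in QKI-5 libraries and 1.09, 1.00 and 1.40 in controls. The sources used here do not say whether repeats are separate crosslinked molecules or PCR copies, and their part in the results was not tested. QKI-5 libraries held 6592 to 25161 events in the gene and controls 65 to 344. The part of this depth in the repeats was not tested either.

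Plus-strand events did not begin at the start of ZFAND3. They began at 37744275, 43.03 kb before it, after 147.5 kb without a plus-strand event in any library. The first event lay 43.03, 43.01 and 42.8 kb before the gene start in QKI-5 replicates 1, 2 and 3, and 42.3, 38.1 and 36.9 kb before it in controls 1, 2 and 3. From there to the gene start QKI-5 libraries held 260, 268 and 250 EPM, from 1896, 574 and 721 events. Controls held 210, 241 and 335 EPM, from 29, 10 and 10 events. The groups overlap, with means of 259 ± 9.18 EPM in the QKI-5 libraries and 262 ± 65.2 EPM in controls (SD, n = 3 each; two-sided exact permutation p = 1), while within the gene the ratio was 1.48 (the difference between these contrasts was not tested). The last kb before the gene start held 4.94, 5.13 and 6.23 EPM in the QKI-5 libraries and 0 in each control, and the first kb after it held 6.18, 5.13 and 4.50 EPM in the QKI-5 libraries and 0 in each control. In the third kb all 3 controls lay above all 3 QKI-5 libraries, with 30.6, 33.1 and 33.2 EPM in the QKI-5 libraries and 72.5, 48.2 and 67.1 EPM in controls, from 10, 2 and 2 control events. The fourth kb of the gene held 50.9, 57.9 and 42.9 EPM in the QKI-5 libraries and 29.0, 0 and 0 EPM in controls. The rise of the QKI-5 libraries thus came inside the gene. In the RefSeq order the genes before ZFAND3 are ZFAND3-DT, a long noncoding RNA, and MDGA1, but the stretch was not assigned to a transcript here.

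At the other end QKI-5 levels were lower after the gene than within it. The last 50 kb of ZFAND3 held 167, 160.0 and 146 EPM in the QKI-5 libraries and 65.3, 72.3 and 302 EPM in controls. The 50 kb after it held 18.8, 22.4 and 22.2 EPM in the QKI-5 libraries and 21.8, 24.1 and 0 EPM in controls. On the minus strand the whole gene held 1, 0 and 1 events in QKI-5 libraries and 0 in each control, and the chosen window held none. The RefSeq order places 4 other genes within ZFAND3, the pseudogenes RN7SL285P, RNVU1-33 and ITGAEP1 and the long noncoding RNA LOC124901314. Reads that fit such copies elsewhere in the genome could be placed here or there, and the sources used here do not say how the authors placed them.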

How the data were processed

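The deposited files list crosslink positions with raw counts of events, 1 library per file. The tools cutadapt and Bowtie and the build hg19 are named in the submitters' processing notes. Per the labels' protocols, reverse transcription used primers with barcodes. The sources used here give no versions, alignment settings or merging of PCR copies, so intervals and floors (95% exact, 3 events) cover counting error only.

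Gene and window coordinates came from the rule that chose the gene. The gene, its window and all lists were chosen with earlier results of these data known. Events were summed over strand-specific 10 kb windows of the genome and tested with edgeR 4.0.16 (quasi-likelihood test, TMM, filterByExpr, group as the only term) with Benjamini-Hochberg adjustment over 29960 windows. Alternatives were DESeq2 1.42.0, other scalings, no filter, 5 kb windows, distinct positions, capped repeats, the gene taken from the first event before it, a replicate block, other cluster definitions and leaving out each library. Single values were compared by two-sided exact permutation tests (scipy 1.17.1), unpaired. The scripts were tested on simulated data. The simulation for edgeR planted only large changes in windows of high level, so it does not show the power for smaller changes such as most in ZFAND3. Named are the chosen window, the 5 other windows of the gene with the highest mean QKI-5 EPM, and the 8 clusters and 8 positions with the highest geometric mean EPM. Planned motif, exon, family and cell marker steps needed an hg19 annotation and were not run. R 4.3.3, Python 3.11.15, numpy 2.4.6, pandas 2.3.3 and matplotlib 3.10.9 were used.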

Additional observations from a re-analysis of the deposited data

How the results depend on the processing

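The level of ZFAND3 and of its rest kept their direction under all 10 alternatives each. With 1 library left out the ratio of QKI-5 to control lay between 1.38 and 1.61 for the gene and between 1.39 and 1.58 for its rest. The count of called ZFAND3 windows was 0 and lay between 0 and 10 with 1 library left out, 10 without control replicate 1. With a QKI-5 library left out only 12 or 13 of the 35 windows passed the filter on low counts. The count was 4 in 5 kb windows and 1 with DESeq2. The log2 fold change of the chosen window lay between 0.66 and 2.69 with 1 library left out, was 2.69 and called without control replicate 1, and was 1.79 and called for its first 5 kb. Less the median of all windows of the same fit, it was 0.54 with all libraries and -4.01 without control replicate 1. Without any other single library that difference lay between 0.23 and 0.62. The cause of these changes was not tested. The difference in the window's share of the gene lay between -1.24 and 3.49 percentage points with 1 library left out and reversed without control replicate 2, which held 1 event there. With distinct positions the difference in the first 67.0 kb reversed to -0.69 and the held-out difference to -1.67 percentage points, and with 1 library left out they lay between 5.92 and 10.7 and between 7.15 and 12.3. With events at one position capped at 3 they were 2.46 and 0.804 percentage points. With the gene taken from the first event of the stretch before it, the difference in its first part was 0.586 percentage points (exact permutation p = 0.8). ZFAND3 windows above the genome-wide median numbered 25, and 7 to 25 under the other settings with all 35 windows tested, each against the median of its own fit. The chosen window held 42 clusters with positions of 2 libraries, 23 with clusters of 1 position, 5 with clusters of 3 positions, 5 after thinning, and 14 to 31 with 1 QKI-5 library left out.

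Same-numbered libraries of the 2 groups deviated together at correlations of 0.000939, 0.105 and 0.0717. Control counts per window are low, which weakens such correlations, so they cannot tell whether same-numbered libraries share a batch. Over whole libraries, QKI-5 replicates 1, 2 and 3 held 1.39, 1.72 and 1.75 events per position. Control replicates 1, 2 and 3 held 1.30, 1.61 and 1.62. With a block for the replicate number, edgeR found 0 called windows in ZFAND3 and 0 in the genome, against 226 higher and 32 lower without it, and the chosen window had a log2 fold change of 1.69 (adjusted p = 0.566 by edgeR). Within replicate numbers the pairing gave ratios of 1.49 for the gene and 1.47 for its rest, and differences of 1.33 percentage points for the window's share and 7.68 for the first 67.0 kb, at exact permutation p of 0.25 or more. Depth limits the controls, where 1 event in the chosen window is worth up to 33.5 EPM.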
